A study of Mus musculus with 13 samples.

Results

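The genes described here take fatty acids and lipoproteins out of the blood and into fat. They are Lpl, Gpihbp1 and Angptl4 of the lipase system, the lipoprotein receptors Vldlr and Lrp1, the fatty acid entry genes Cd36, Slc27a1 and Cav1, the binding protein Fabp4 and the acyl-CoA synthetase Acsl1. They were chosen by name, with earlier results of these data known. A gene was measured where a probe set was annotated to exactly 1 symbol, with the probe set of the highest mean standing for the gene. By this rule 9 of the 10 genes were measured, with 1 probe set each, among 18818 genes in all. Acsl1 is not analysed here.

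RNA of whole epididymal white fat from male mice was measured on 13 Affymetrix arrays in 4 groups of genotype and injection. The wild type mice and the CD1d knockout mice, of the line B6.129S6-Cd1d1/Cd1d2tm1spb/J (CD1d-/-), were of the background strain C57Bl/6J per the labels. Both began a high-fat diet at day 0, were injected into the peritoneum at days 0 and 2, and gave their fat at day 4, at 6.5 weeks of age. The injection held either α-galactosylceramide (αGalCer, 100 ng per g of body weight), a glycolipid that CD1d presents to natural killer T (NKT) cells, or the vehicle pyridine. The vehicle groups held 3 wild type and 3 knockout arrays, and the αGalCer groups held 4 and 3. The knockout is of the whole mouse, so every cell type lacks CD1d and the NKT cells that depend on it, and no group ate another diet. The labels call the arrays replicates and do not say whether each came from its own mouse, so the p-values reflect only how far these samples differ, part of which may be technical.

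Lipoprotein lipase, the product of Lpl, splits the triglyceride of chylomicrons and very low density lipoproteins (VLDL) on the wall of capillaries. Adipocytes make it, and GPIHBP1, a protein of capillary endothelial cells, carries it to the vessel lumen and holds it there, while ANGPTL4 inactivates it. The fatty acids set free then pass through endothelial cells and adipocytes with the help of CD36, fatty acid transport proteins such as FATP1 (gene Slc27a1) and caveolae, the membrane pits built from caveolin-1 (gene Cav1). FABP4 binds them inside the cell. The VLDL receptor (gene Vldlr) and LRP1 bind lipoproteins and remnants rich in apolipoprotein E. Several of these genes are also active in macrophages, Lpl, Cd36, Fabp4 and Lrp1 among them, so a level in whole fat has more than 1 cellular source.

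To show the DNA in front of genes with unlike responses to αGalCer, the 250 bases before a transcription start are printed for Cd36 and Vldlr, whose RNA fell in wild type fat, and for Lrp1, whose change did not pass the test. The sequences are those of RefSeq on the build GRCm38.p6, which held starts for 6 of the 10 genes. Capitals mark matches on either strand to 6 motifs: the PPAR and RXR element (the half-site AGGTCA repeated after 1 base), AGGTCA alone (which also lies within that element), TTGCNNAA (the C/EBP core), TCACNCCAC (a sterol element), TATAAA (the TATA box) and CCAAT (the CCAAT box). The Cd36 stretch lies at chr5:17835897-17836146 on the minus strand, the Vldlr stretch at chr19:27216234-27216483 on the plus strand, before the first of its listed starts, and the Lrp1 stretch at chr10:127621149-127621398 on the minus strand.
Cd36: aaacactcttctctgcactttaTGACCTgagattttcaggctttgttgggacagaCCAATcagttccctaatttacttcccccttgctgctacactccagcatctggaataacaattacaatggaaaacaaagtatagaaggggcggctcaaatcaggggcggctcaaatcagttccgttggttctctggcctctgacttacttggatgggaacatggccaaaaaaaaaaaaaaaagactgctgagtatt
Vldlr: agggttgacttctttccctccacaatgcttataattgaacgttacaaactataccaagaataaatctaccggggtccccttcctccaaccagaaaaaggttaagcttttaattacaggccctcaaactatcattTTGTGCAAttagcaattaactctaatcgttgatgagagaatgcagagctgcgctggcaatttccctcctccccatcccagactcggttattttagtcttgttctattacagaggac
Lrp1: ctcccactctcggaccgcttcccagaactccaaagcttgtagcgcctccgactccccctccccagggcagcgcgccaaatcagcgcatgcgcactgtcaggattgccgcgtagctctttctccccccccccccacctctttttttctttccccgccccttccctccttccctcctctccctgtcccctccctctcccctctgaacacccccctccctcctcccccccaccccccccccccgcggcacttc
Cd36 held 1 half-site, read on the opposite strand, and 1 CCAAT box. Vldlr held 1 C/EBP core, and Lrp1 held none of the 6 motifs. The half-site stood in 14.0% of 32851 mouse promoters of this length, the C/EBP core in 9.56%, the CCAAT box in 33.8%, the TATA box in 12.4%, the sterol element in 1.05% and the full PPAR and RXR element in 0.0335%. The GC content was 43.2% for Cd36, 41.6% for Vldlr and 67.2% for Lrp1. A second Vldlr start, at chr19:27216770-27217019 on the plus strand and not printed, had 66.4% GC, 1 CCAAT box and no C/EBP core. Slc27a1 and Cav1, whose RNA also fell, are not printed. The listed Slc27a1 starts had 66.4%, 60.8% and 58.4% GC, with 1 CCAAT box in the first and the last and no motif in the other. The Cav1 starts had 59.6% GC with 1 TATA box and 60.8% GC with no motif. The part of motifs or GC content in the responses was not tested. These matches describe letters in a window and are no evidence of binding.

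All values are log2 expression, so a difference of 1 is a 2-fold difference, and levels are compared only within a gene. Cd1d1, the targeted gene, lay between 9.08 and 10.86 on the 7 wild type arrays and between 2.64 and 4.03 on the 6 knockout arrays. Genes that mark adipocytes showed the tissue to be fat, with Retn, Cidec and Dgat2 the brightest of 18 measured markers. The mean of these 18 lay at 11.46 to 11.58 in wild type fat after vehicle, 9.42 to 10.24 after αGalCer, and 11.58 to 11.68 over both knockout groups. The mean of 20 endothelial markers lay at 9.18 to 9.37, 7.84 to 8.25 and 9.15 to 9.42 in the same order, that of 18 macrophage markers at 8.13 to 8.87, 10.45 to 10.60 and 8.56 to 9.22, and that of 13 T and NK cell markers at 5.14 to 5.47, 7.94 to 8.68 and 5.32 to 5.90. In wild type fat all 18 adipocyte and 18 of 20 endothelial markers fell by the test described below, beside 22.0% of all genes. Of 18 macrophage markers 17 rose, beside 19.8% of all genes. Lyve1 of the endothelial list rose, from a group mean of 9.96 after vehicle to 11.28 after αGalCer, and whether endothelial cells were its source was not tested. The adipocyte marker Nnat fell furthest, from 12.38 to 8.31. Both stayed in their list means, and their part in the relative values below was not tested. In RNA of whole tissue, fewer cells of a type and less RNA per cell cannot be told apart. Skeletal muscle genes stood apart on 3 arrays, with a list mean of 8.38 and 6.82 in replicates 1 and 2 of knockout fat after vehicle and of 8.66 in replicate 3 after αGalCer, while the other arrays lay at 5.18 to 5.98. Genes of epididymal epithelium were highest in wild type vehicle replicate 3 (list mean 6.53) and knockout vehicle replicate 1 (5.83). Leaving out the 3 muscle arrays leaves 1 knockout vehicle array, replicate 3, so in every value given without them that array is assumed to vary like the other groups. Such a value for a comparison that includes knockout vehicle fat rests on that array.

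The first comparison asked what αGalCer did to the uptake genes in fat that has NKT cells. In wild type fat 7 of the 9 measured genes fell and none rose, beside 22.0% of all genes that fell, 19.8% that rose and 41.9% called in either direction (limma, Benjamini-Hochberg adjusted p under 0.05). Vldlr and Gpihbp1 fell about 4-fold, and Lpl, Fabp4, Slc27a1, Cav1 and Cd36 fell by 1.66-fold to 1.94-fold. Angptl4 and Lrp1 did not pass the test. The median change of the 9 genes was -0.81, against -0.02 over all genes. Because the genes were chosen with earlier results of these data known, these counts and medians are descriptions and no independent result. For each of the 7 genes the 4 αGalCer arrays lay below the 3 vehicle arrays, as they did for 25.0% of all genes, and also below all 9 arrays of the other groups, as for 18.2%.

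Lpl codes for the lipase itself. Its level was 12.70, 12.82 and 12.83 in wild type fat after vehicle and 11.68, 11.57, 12.14 and 11.92 after αGalCer. In knockout fat it was 12.57, 12.84 and 12.80 after vehicle and 12.72, 12.67 and 12.85 after αGalCer. The wild type αGalCer arrays were the low ones, with no overlap with any other array, and the other 3 groups overlapped each other. The fall in wild type fat was 0.95 ± 0.12 on the log2 scale (change -0.95, SE 0.12, 95% interval -1.21 to -0.70), a 1.94-fold lower level (limma adjusted p = 2.26e-05).

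Gpihbp1 codes for the endothelial carrier of the lipase. Its level in wild type fat was 10.18, 9.99 and 9.91 after vehicle and 8.23, 7.74, 8.02 and 7.85 after αGalCer. In knockout fat it was 10.12, 10.17 and 10.16 after vehicle and 10.04, 10.14 and 10.29 after αGalCer. The 4 wild type αGalCer arrays thus lay far below the other 9, which formed 1 narrow band. The change of -2.07 ± 0.11 (SE, 95% interval -2.31 to -1.83) left 23.9% of the vehicle level, a 4.19-fold fall (limma adjusted p = 5.92e-08), larger than the fall of all but about 1.01% of genes.

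Angptl4 codes for a secreted inhibitor of the lipase that fasting and fatty acids are known to induce. Its level was 9.15, 9.85 and 9.92 in wild type fat after vehicle and 10.28, 9.94, 9.67 and 9.81 after αGalCer, and 9.78, 9.63 and 9.44 against 9.68, 9.65 and 9.90 in knockout fat. The groups overlapped, and 1 wild type vehicle array, replicate 1, was lower than the rest. The change in wild type fat was 0.28 ± 0.18 (SE, 95% interval -0.12 to 0.68, limma adjusted p = 0.255), and 0.04 without that array (adjusted p = 0.880). So the lipase and its carrier fell while no change of the inhibitor passed the test, with an interval that leaves room for a rise of up to 0.68.

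Vldlr codes for the VLDL receptor, which in fat binds triglyceride-rich particles close to the lipase. Its level was 9.41, 9.68 and 9.77 in wild type fat after vehicle and 7.33, 7.57, 7.71 and 7.33 after αGalCer. In knockout fat it was 9.26, 9.67 and 9.65 after vehicle and 9.49, 9.53 and 9.57 after αGalCer. Again the wild type αGalCer arrays stood below all others and the 3 remaining groups overlapped. The change of -2.13 ± 0.13 (SE, 95% interval -2.41 to -1.85) was the largest of the 9 genes, a 4.39-fold fall (limma adjusted p = 1.10e-07). It differed from that of Gpihbp1 by less than the SE of either gene.

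Lrp1 codes for a large receptor of remnant particles and of many other ligands. Its level was 11.47, 11.69 and 11.59 in wild type fat after vehicle and 11.81, 11.67, 11.65 and 11.76 after αGalCer. In knockout fat it was 11.88, 11.74 and 11.76 after vehicle and 11.90, 11.83 and 11.74 after αGalCer. All 4 groups lay within a narrow range, and those of wild type fat overlapped. The change was 0.14 ± 0.07 (SE, 95% interval -0.01 to 0.29, limma adjusted p = 0.140), an interval that leaves room for a fall of 0.01 at most. Of the 2 receptors, then, Vldlr fell and Lrp1 did not pass the test.

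**Figure D1:**
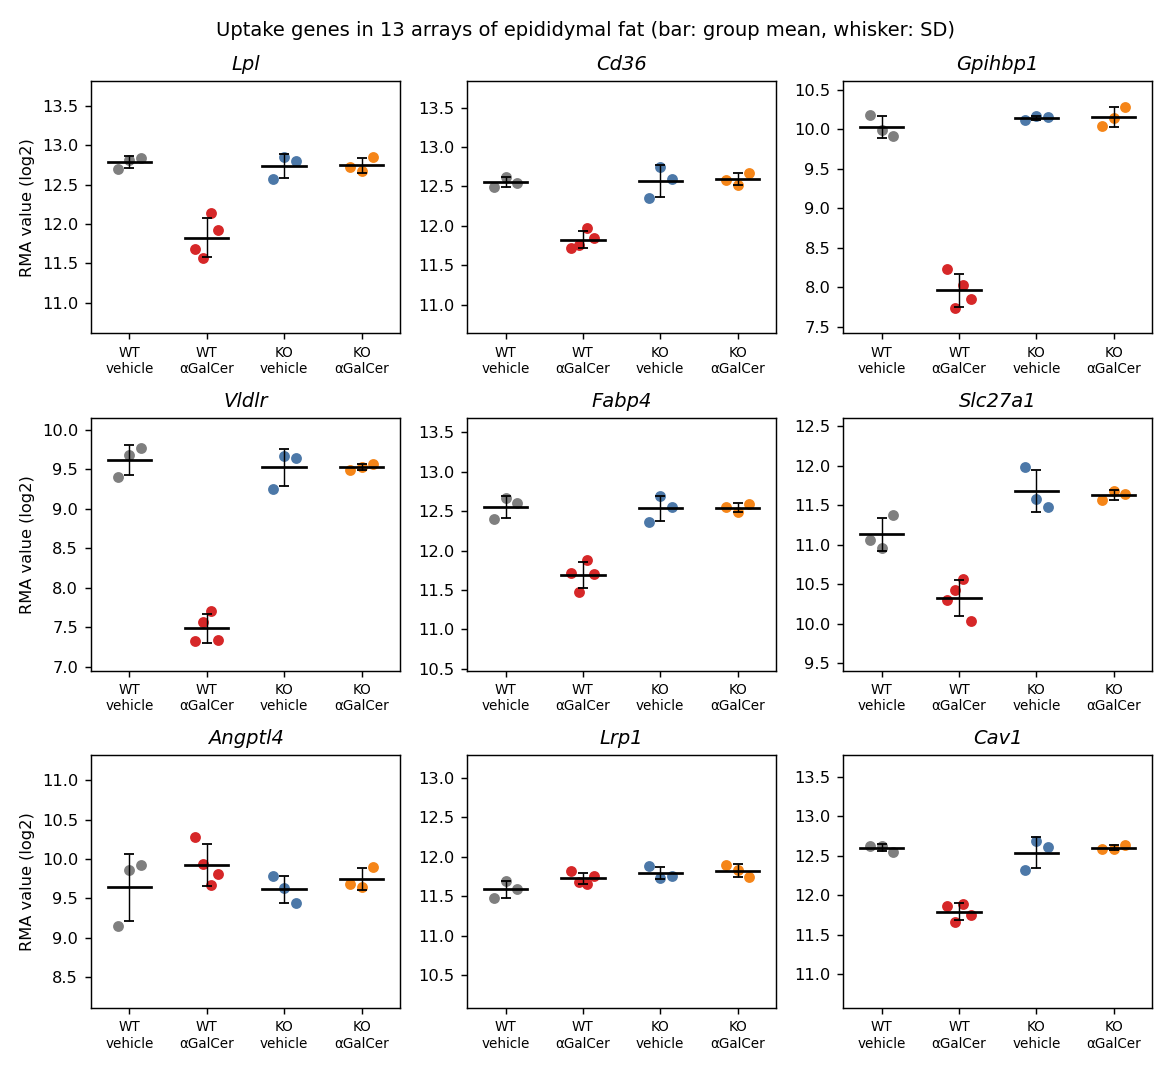
Log2 expression of the 9 measured uptake genes on each of the 13 arrays, 1 panel per gene, with points for arrays, bars for the group mean and whiskers for 1 SD. In Lpl, Cd36, Gpihbp1, Vldlr, Fabp4, Slc27a1 and Cav1 the 4 wild type arrays after αGalCer lie below the other 9, and in Angptl4 and Lrp1 the wild type groups overlap.

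Cd36 codes for the scavenger receptor that takes up long-chain fatty acids. Its level was 12.50, 12.62 and 12.55 in wild type fat after vehicle and 11.73, 11.75, 11.97 and 11.85 after αGalCer. In knockout fat it was 12.35, 12.75 and 12.60 against 12.59, 12.52 and 12.67. The wild type αGalCer arrays were again lowest, without overlap. The change of -0.73 ± 0.09 (SE, 95% interval -0.92 to -0.54) was the smallest among the 7 genes that fell, a 1.66-fold lower level (limma adjusted p = 2.21e-05).

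Slc27a1 codes for the insulin-responsive fatty acid transport protein FATP1. Its level was 11.05, 10.96 and 11.37 in wild type fat after vehicle and 10.29, 10.42, 10.57 and 10.03 after αGalCer. In knockout fat it was 11.98, 11.59 and 11.48 after vehicle and 11.56, 11.68 and 11.64 after αGalCer. The wild type αGalCer arrays were lowest, and, as in Lrp1, the knockout arrays of both groups lay above the wild type vehicle arrays. The change in wild type fat was -0.80 ± 0.14 (SE, 95% interval -1.11 to -0.49), a 1.74-fold lower level (limma adjusted p = 0.000495).

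Cav1 codes for the main coat protein of caveolae, which adipocytes and endothelial cells both make. Its level was 12.62, 12.63 and 12.55 in wild type fat after vehicle and 11.87, 11.66, 11.89 and 11.75 after αGalCer, and 12.32, 12.69 and 12.62 against 12.59, 12.59 and 12.64 in knockout fat. The 4 wild type αGalCer arrays lay below the rest. The change was -0.81 ± 0.08 (SE, 95% interval -0.99 to -0.63), a 1.75-fold lower level (limma adjusted p = 5.00e-06).

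Fabp4 codes for the fatty acid binding protein that is abundant in adipocytes. Its level was 12.39, 12.67 and 12.60 in wild type fat after vehicle and 11.72, 11.47, 11.88 and 11.71 after αGalCer, and 12.37, 12.69 and 12.55 against 12.56, 12.49 and 12.59 in knockout fat. No wild type αGalCer array reached any other array. The change was -0.86 ± 0.10 (SE, 95% interval -1.08 to -0.64), a 1.82-fold lower level (limma adjusted p = 1.46e-05).

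Within the wild type αGalCer group, replicate 3 held the highest level of 6 of the 7 genes that fell and the highest adipocyte marker mean (10.24). Replicate 2 held the lowest level of 4 of them, Lpl, Gpihbp1, Fabp4 and Cav1, and the lowest adipocyte (9.42) and endothelial (7.84) marker means, while for Vldlr and Slc27a1 it held the second highest level and Cd36 was lowest in replicate 1. These are descriptions of 4 arrays, and the part of the markers in the differences was not tested.

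In knockout fat none of the 9 genes was called after αGalCer, with limma adjusted p from 0.872 to 1.00, none had an unadjusted p under 0.05, and none had groups that did not overlap. No gene of the whole table was called there (0%), 1281 genes had an unadjusted p under 0.05, and the groups did not overlap for 13.8% of genes. The changes were 0.01 for Lpl (95% interval -0.26 to 0.28), 0.00 for Gpihbp1 (-0.25 to 0.26), 0.00 for Vldlr (-0.30 to 0.30), 0.03 for Cd36 (-0.18 to 0.23), 0.01 for Fabp4 (-0.23 to 0.24) and 0.06 for Cav1 (-0.13 to 0.26). Slc27a1 changed by -0.05 (95% interval -0.39 to 0.28). For each of these 7 genes the whole interval lay above the change in wild type fat. Angptl4 changed by 0.13 (-0.30 to 0.55) and Lrp1 by 0.03 (-0.13 to 0.19).

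The difference between the effects of αGalCer in wild type and knockout fat was tested itself, with all 4 groups in 1 model. It was called lower for 7 of the 9 genes, beside 14.3% of all genes. The difference was -2.13 ± 0.19 for Vldlr (SE, limma adjusted p = 1.03e-05) and -2.07 ± 0.16 for Gpihbp1 (5.80e-06). It was -0.96 ± 0.17 for Lpl (0.000967), -0.87 ± 0.12 for Cav1 (0.000173), -0.87 ± 0.15 for Fabp4 (0.000676), -0.76 ± 0.13 for Cd36 (0.000770) and -0.75 ± 0.21 for Slc27a1 (0.0165). For these 7 genes the fall after αGalCer was thus larger in mice with CD1d than in mice without it. Angptl4 differed by 0.16 ± 0.27 (limma adjusted p = 0.754) and Lrp1 by 0.11 ± 0.10 (0.516), with 95% intervals of -0.43 to 0.74 and -0.11 to 0.33.

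**Figure D2:**
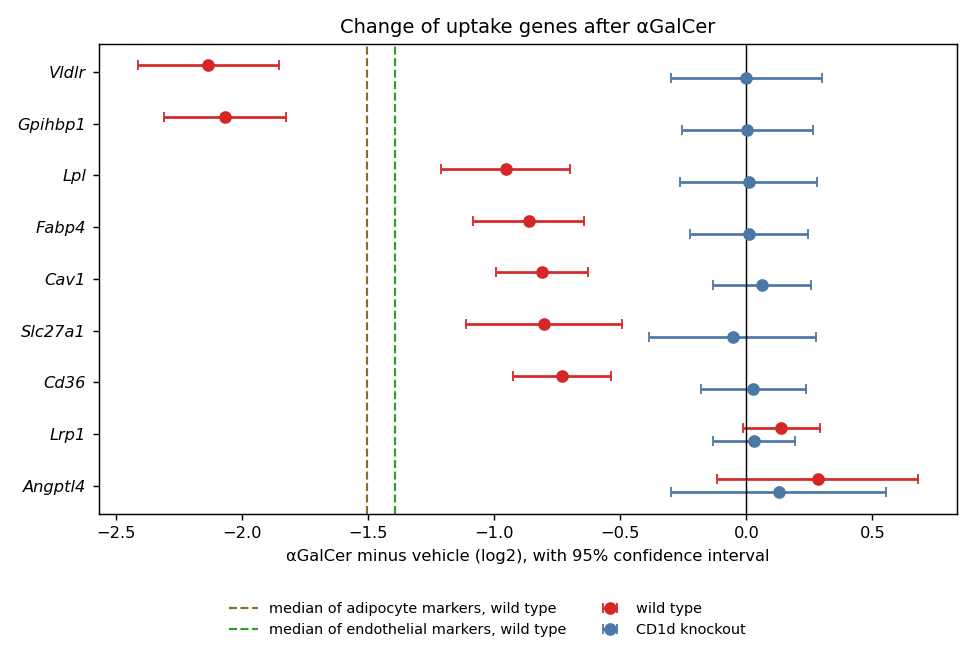
Log2 change after αGalCer of the 9 uptake genes in wild type and in knockout fat, with 95% intervals from the limma model and dashed lines at the wild type medians of the adipocyte (-1.51) and endothelial (-1.39) markers. The intervals of Vldlr and Gpihbp1 in wild type fat end at -1.83 or lower, those of Lpl, Fabp4, Cav1, Slc27a1 and Cd36 lie between -1.21 and -0.49, and every interval in knockout fat includes 0.

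The genotypes were compared after each injection, on arrays that the comparisons above also used. After vehicle none of the 9 genes was called, beside 0.112% of all genes, and 7 of them differed by -0.09 to 0.12. Slc27a1 was 0.55 ± 0.15 higher in the knockout (SE, 95% interval 0.22 to 0.88, unadjusted p = 0.00334, limma adjusted p = 0.360), with all 3 knockout arrays above all 3 wild type arrays. The highest of them, 11.98, was replicate 1, with a muscle list mean of 8.38. The array with the highest muscle mean, 8.66 in knockout αGalCer replicate 3, held a Slc27a1 level of 11.64, between the other 2 arrays of its group, and knockout vehicle replicate 3, with a muscle mean of 5.81, lay at 11.48, still above all wild type vehicle arrays. The part of muscle RNA in the difference was not tested. Without the 3 muscle arrays the difference was 0.35 (limma adjusted p = 0.658), from 1 knockout vehicle array. Lrp1 was 0.21 ± 0.08 higher (SE, 95% interval 0.04 to 0.37, unadjusted p = 0.0168, limma adjusted p = 0.577), also without overlap. Groups stood apart in this direction for 7.38% of all genes, so these 2 genes are given as values that did not pass the test.

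After αGalCer 7 of the 9 genes were higher in knockout than in wild type fat, beside 21.9% of all genes, and for these 7 the groups did not overlap, as for 28.0% of all genes. Gpihbp1 was 2.19 ± 0.11 higher (SE, limma adjusted p = 4.33e-08), Vldlr 2.04 ± 0.13 (1.37e-07) and Slc27a1 1.30 ± 0.14 (8.43e-06). Lpl was higher by 0.92, Fabp4 by 0.85, Cav1 by 0.81 and Cd36 by 0.77. Slc27a1, at 2.46-fold, thus stood further from wild type here than its own fall in wild type fat of 1.74-fold. Angptl4 (-0.18, limma adjusted p = 0.487) and Lrp1 (0.10, adjusted p = 0.306) did not pass the test.

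Because markers of adipocytes and endothelium moved with these genes, each gene was also set against them. Relative to the mean of the 18 adipocyte markers on the same array, which is itself part of the response, 7 of the 9 genes were higher in wild type fat after αGalCer, beside 93.4% of all genes. Gpihbp1 and Vldlr were lower, beside 0.877% of all genes. After αGalCer Gpihbp1 fell by 0.47 ± 0.18 relative to that mean (change -0.47, limma adjusted p = 0.0138) and Vldlr by 0.54 ± 0.21 (change -0.54, adjusted p = 0.0145). Only 3 of the 18 adipocyte markers fell more than either gene. The calls of both depended on single arrays. Gpihbp1 changed by -0.39 without wild type vehicle replicate 1 (adjusted p = 0.0886), and Vldlr by -0.43 without wild type vehicle replicate 3 (0.0875) and by -0.43 without wild type αGalCer replicate 1 (0.0561). The difference of this measure between the genotypes was -0.49 ± 0.26 for Gpihbp1 (limma adjusted p = 0.0776) and -0.55 ± 0.30 for Vldlr (0.0831), which did not pass.

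Relative to the mean of the 20 endothelial markers, Gpihbp1 fell by 0.84 ± 0.13 (change -0.84, limma adjusted p = 1.05e-05) and Vldlr by 0.90 ± 0.15 (change -0.90, adjusted p = 3.55e-05), beside 2.16% of all genes that were lower on this scale. Both calls held under all 24 alternatives. Only 1 of the 20 endothelial markers fell more than either gene. The difference between the genotypes was called on this scale too, at -0.68 ± 0.19 for Gpihbp1 (adjusted p = 0.00259) and -0.74 ± 0.22 for Vldlr (0.00536). The other 7 genes rose relative to the endothelial mean, beside 89.4% of all genes, by 0.28 ± 0.12 for Lpl, 0.37 for Fabp4, 0.42 for Cav1, 0.43 for Slc27a1, 0.50 for Cd36, 1.37 for Lrp1 and 1.51 for Angptl4. The call of Lpl (limma adjusted p = 0.0420) was lost in 12 of 24 alternatives, among them leaving out wild type αGalCer replicate 3 (0.17, adjusted p = 0.154), and that of Slc27a1 (0.0319) in 5.
The other 5 genes that fell thus fell less than most of these markers. Of the 18 adipocyte markers 16 fell more than Lpl and 17 more than each of Cd36, Fabp4, Slc27a1 and Cav1. Lpl, Cd36, Fabp4 and Cav1 were bright, with means of 12.28 to 12.47 over all arrays, and Slc27a1 lay at 11.13. Gpihbp1 (9.45) and Vldlr (8.92) were dimmer. The brightest adipocyte markers, Retn, Cidec and Dgat2, had means of 12.27 to 12.73 and changed by -0.97, -0.90 and -1.33. The part of brightness in the size of these falls was not tested.

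The wider uptake pathway was described with 6 lists of 86 other genes, of which 78 were measured. In wild type fat 44 of the 78 fell and 9 rose, beside 22.0% and 19.8% of all genes, and their median change was -0.58. The same shares of all genes stand beside the wild type counts of each list below. In knockout fat none of the 78 was called and 2 had an unadjusted p under 0.05. The difference of effects was called lower for 29, beside 14.3% of all genes. Some others were called higher, a direction for which the share of all genes was not counted. Because the lists were chosen with results of these data known, no set test was run, and they are described by counts, medians and single genes. Most genes named below were picked by their change on the wild type arrays, which their difference between genotypes also uses.

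Among 14 partners and regulators of the lipase 7 fell, 2 rose and 5 were not called, with a median of -0.45. Pcsk6, a proprotein convertase, a class of protease that cleaves lipases and ANGPTL proteins, lay at 9.08, 9.51 and 9.16 after vehicle and at 6.99, 6.94, 7.76 and 7.23 after αGalCer in wild type fat. It fell by 2.02 ± 0.18 (change -2.02, limma adjusted p = 1.20e-06), with no overlap. Apoe, the ligand of LRP1 and the VLDL receptor, changed by -1.31 ± 0.19 (adjusted p = 8.86e-05), and Angptl8, an insulin-induced partner of ANGPTL proteins, by -1.54 ± 0.37 (0.00448). Sdc1, a heparan sulfate proteoglycan that binds lipoproteins, rose by 1.25 ± 0.18 (7.38e-05), and Furin, another proprotein convertase, by 0.53 ± 0.16 (0.0143). The effect differed between genotypes for Pcsk6, Apoe and Sdc1. For Furin the difference of 0.71 (adjusted p = 0.0332) lost its call in 8 of 23 alternatives. Of these, 7 left out a single array: wild type vehicle replicate 2 (0.70, 0.0657) or 3 (0.69, 0.0693), wild type αGalCer replicate 4 (0.70, 0.0570), knockout vehicle replicate 1 (0.52, 0.0570), or knockout αGalCer replicate 1 (0.73, 0.0539), 2 (0.72, 0.0636) or 3 (0.68, 0.0752). The remaining one left out the 3 muscle arrays (0.40, 0.311, from 1 knockout vehicle array). For Angptl8 the knockout change was -0.74 and the difference of -0.80 did not pass (adjusted p = 0.340). Angptl8 spread widely after vehicle in wild type fat (9.60, 8.34 and 7.75), and without replicate 1 of that group its change was -1.03 (0.0176) and the difference -0.29 (0.693). The maturation factors of the lipase, Lmf1 (-0.10) and Sel1l (0.08), which were picked after their values were seen, were not called.

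Of 11 lipoprotein receptors and their handlers 8 fell, 1 rose and 2 were not called (median -0.64). Sort1, coding for sortilin, fell by 1.56 ± 0.12 (change -1.56, limma adjusted p = 4.34e-07). Mylip, coding for a ubiquitin ligase that degrades the VLDL receptor, fell by 1.18 ± 0.13 (change -1.18, 9.98e-06), so the ligase fell beside Vldlr itself. Lrp8, a receptor of the same family as the VLDL receptor, rose by 0.94 ± 0.16 (0.000411), opposite to Vldlr, and its difference between genotypes of 0.94 (adjusted p = 0.0101) was 0.79 without the 3 muscle arrays (0.0885, from 1 knockout vehicle array). Lrp2, the receptor megalin of absorptive epithelia, lay at 8.85, 7.27 and 8.64 after vehicle and 5.74, 5.86, 6.37 and 6.54 after αGalCer in wild type fat, and at 9.84, 7.83 and 6.51 against 7.07, 6.96 and 6.34 in knockout fat. Its fall of 2.13 ± 0.61 in wild type fat (change -2.13, adjusted p = 0.0126) was not called without wild type vehicle replicate 1 (-1.83, adjusted p = 0.0583) or replicate 3 (-1.94, 0.0512). Its difference between genotypes did not pass (-0.86, adjusted p = 0.562) and ran from -2.63 to -0.09 over the alternatives, the former the only one called (without the 3 muscle arrays, 0.0221, from 1 knockout vehicle array). The list mean of epididymal epithelium ran from 4.90 to 6.53 and from 4.80 to 5.83 in the vehicle groups and from 4.61 to 4.92 after αGalCer, and its part in the Lrp2 values was not tested.

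Of 15 other fatty acid transport and binding genes 5 fell, 1 rose and 9 were not called (median -0.15). This list was thus called about as often as all genes, of which 41.9% were called in either direction. Slc27a2, the transport protein FATP2 of liver and kidney, lay at 7.36, 6.10 and 7.22 after vehicle and 4.74, 4.69, 4.65 and 4.74 after αGalCer in wild type fat, and at 8.40, 5.99 and 5.68 against 4.45, 4.53 and 4.67 in knockout fat. It was thus low on all arrays after αGalCer and spread widely after vehicle, and the highest array, knockout vehicle replicate 1, also held epididymal transcripts. The fall in wild type fat was 2.19 ± 0.51 (change -2.19, limma adjusted p = 0.00347). Its change in knockout fat was -2.14 (adjusted p = 0.720), and the difference of -0.05 did not pass (adjusted p = 0.976). Without knockout vehicle replicate 1 the knockout change was -1.28 and the difference -0.90 (0.0941), and over all alternatives the difference ran from -0.99 to 0.46 with no call. Slc27a1 and Slc27a2 thus belong to 1 family and did not share a profile. Fabp1, the liver form, changed by -1.56 ± 0.30 (0.000869), and Slc27a4, coding for FATP4, by -0.61 ± 0.18 (0.0159), which was -0.43 without wild type vehicle replicate 1 (0.0885). Fabp1 was dim, at 6.04 to 6.52 after vehicle and 4.57 to 5.18 after αGalCer. The difference between genotypes did not pass for Fabp1 (-1.21, limma adjusted p = 0.057) or Slc27a4 (-0.39, 0.341). It was called in 5 of 23 alternatives for Fabp1 and in 1 for Slc27a4. For Fabp1 it was -0.35 without the 3 muscle arrays, from 1 knockout vehicle array.
Fabp7, the brain form, rose 6.26-fold, by 2.65 ± 0.38 (limma adjusted p = 8.19e-05), opposite to Fabp4. It lay at 5.60, 7.03 and 7.38 after vehicle and 8.75, 9.81, 9.26 and 9.45 after αGalCer in wild type fat, and at 5.05, 6.05 and 5.69 against 6.65, 6.32 and 6.23 in knockout fat. All 4 wild type αGalCer arrays were above every other array. Its difference between genotypes was 1.85 ± 0.55 (adjusted p = 0.0238) and lost the call without knockout vehicle replicate 2 (1.62, 0.0628), without knockout αGalCer replicate 2 (1.81, 0.0543) or 3 (1.76, 0.0571), and without the 3 muscle arrays (1.85, 0.115, from 1 knockout vehicle array).

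Acyl-CoA synthetases trap a fatty acid in the cell by joining it to coenzyme A, and 12 of them and their partners split, with 5 lower, 4 higher and 3 not called (median -0.20). The largest 3 falls were in synthetases of short and medium chains. Acsm5 changed by -2.48 ± 0.22 (limma adjusted p = 1.35e-06), Acss3 by -2.13 ± 0.30 (7.70e-05) and Acss2, which makes acetyl-CoA from acetate, by -2.08 ± 0.18 (1.02e-06). Acsl5, a long-chain synthetase, lay at 8.29, 8.55 and 8.25 after vehicle and at 9.52, 9.38, 9.42 and 9.49 after αGalCer in wild type fat, and between 8.46 and 8.60 on all 6 knockout arrays. It rose by 1.09 ± 0.08 (adjusted p = 5.22e-07) without overlap. Acsl4, which prefers arachidonic acid, rose by 0.94 ± 0.23 (0.00488) and the mitochondrial acetate enzyme Acss1 by 0.65 ± 0.12 (0.000512). The difference between genotypes was called for Acsm5, Acss3, Acss2 and Acsl5, and not for Acsl4 (0.264) or Acss1 (0.0607). It was called for Acsl4 with array weights (0.77, 0.00701) and without knockout vehicle replicate 1 (0.87, 0.0220). For Acss1 it was called in 4 of 23 alternatives, among them the replicate block (0.54, 0.0298) and leaving out wild type vehicle replicate 3 (0.56, 0.0342) or wild type αGalCer replicate 4 (0.54, 0.0324).

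Of 10 other caveolar genes 6 fell, none rose and 4 were not called (median -0.77). Cavin2, a coat protein of caveolae, lay at 10.20, 10.33 and 10.20 after vehicle and 8.08, 8.22, 8.77 and 8.38 after αGalCer in wild type fat, and between 9.78 and 10.53 in knockout fat. It fell by 1.88 ± 0.18 (change -1.88, limma adjusted p = 2.72e-06). Cav2, the partner of caveolin-1, changed by -1.59 ± 0.15 (2.86e-06), and Ehd2, an ATPase at the neck of caveolae, by -1.32 ± 0.13 (4.07e-06). For all 3 genes the change exceeded that of Cav1 (-0.81) in size, a difference between genes that was not tested. Each had a called difference between genotypes.

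Regulators of the pathway mostly fell, with 13 of 16 lower, 1 higher and 2 not called (median -1.03). Klf15, a transcription factor of fat and muscle metabolism, changed by -2.25 ± 0.21 (limma adjusted p = 2.17e-06) and the coactivator Ppargc1a by -1.98 ± 0.19 (3.28e-06). Vegfb, whose product is known for its action on endothelial fatty acid transport, lay at 10.41, 10.44 and 10.26 after vehicle and 8.75, 8.29, 8.76 and 8.52 after αGalCer in wild type fat, and between 10.53 and 10.70 in knockout fat. It changed by -1.79 ± 0.11 (1.01e-07) without overlap. Srebf2, a regulator of cholesterol genes, rose by 0.51 ± 0.18 (0.0340). The call was lost without wild type vehicle replicate 2 (0.46) or 3 (0.43) and without wild type αGalCer replicate 1 (0.46) or 2 (0.47). It was also lost with arrays quantile normalised again (0.47) or centred on their medians (0.46). The Srebf2 difference between genotypes of 0.73 did not pass (limma adjusted p = 0.0537) and was called in 7 of 23 alternatives. Some genes were picked after their values were seen. Of these, Pparg, which is known to drive Lpl, Cd36 and Fabp4 in adipocytes, changed by -1.03 ± 0.10 (4.38e-06). Meox2 and Tcf15, endothelial factors known for Cd36, Lpl and Gpihbp1 expression, changed by -1.10 ± 0.18 (0.000302) and -1.20 ± 0.11 (2.42e-06). In knockout fat these 3 changed by 0.04, 0.25 and 0.13, with none called.

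**Figure D3:**
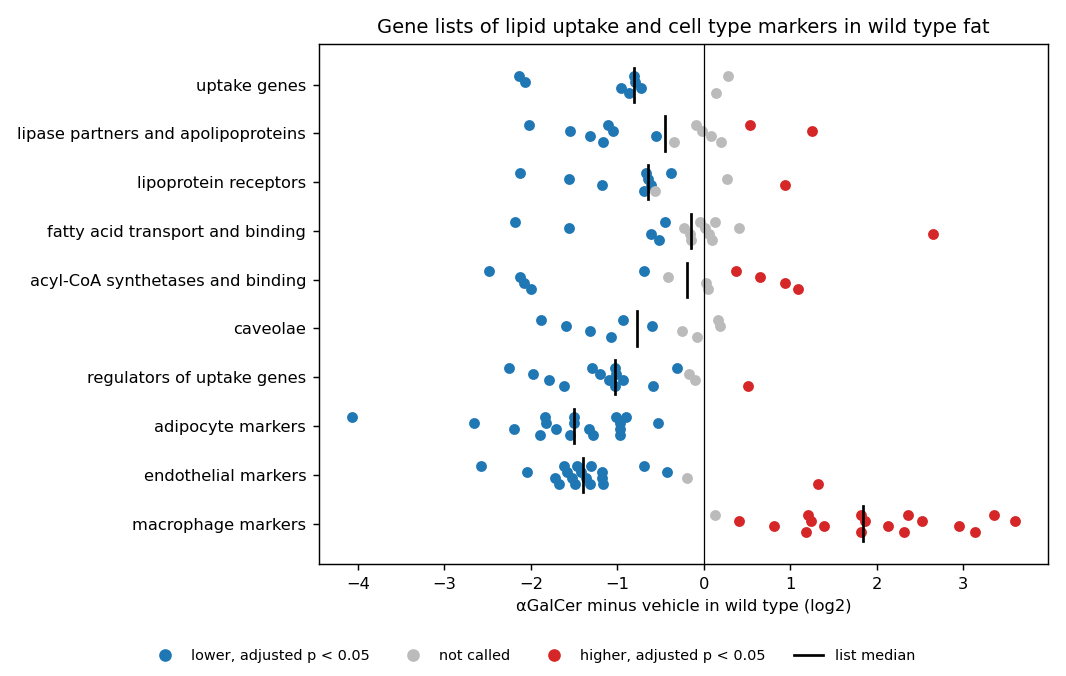
Log2 change after αGalCer in wild type fat for the genes of the uptake set, the 6 pathway lists and the adipocyte, endothelial and macrophage markers, with a point per gene (blue fell, red rose, grey not called) and a bar for the list median. The regulators' median of -1.03 and the caveolar median of -0.77 lie above the medians of the adipocyte (-1.51) and endothelial (-1.39) markers, and macrophage markers lie at a median of 1.84.

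The profiles of the 9 genes over the 13 arrays were compared by the root mean square (RMS) difference after subtracting each gene's own mean. These are descriptions over arrays that share the same 4 groups. Cd36 and Cav1 lay 0.07 apart, Lpl and Fabp4 0.08, Fabp4 and Cav1 0.08, and Cd36 and Fabp4 0.09. Gpihbp1 and Vldlr lay 0.24 apart, against RMS deviations from their own means of 1.00 and 0.97. Angptl4 and Lrp1 also lay 0.24 apart, against RMS deviations of 0.26 and 0.11. Gpihbp1 and Angptl4, the carrier and the inhibitor of the lipase, lay 1.14 apart. Slc27a1 lay 0.34 to 0.73 from every other gene of the set.

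Among all other named genes the profile nearest to Lpl was that of Pex3 (RMS difference 0.07), a factor of peroxisome assembly, followed by Cyp2j6 (0.08) and catalase (Cat, 0.09). Nearest to Cd36 were Ywhab (0.06), Fyco1 (0.07) and Etfa (0.07), and nearest to Cav1 were Ywhab (0.07), Etfa (0.07) and Cilk1 (0.08), so both genes shared 2 of their 3 neighbours. Fabp4 had Car3 (0.07), a carbonic anhydrase abundant in fat, Frg2f1 (0.07) and Ube2h (0.07). Gpihbp1 had Ptprm (0.12), Apcdd1 (0.13) and Tmem120b (0.13), and Vldlr had Fry (0.17), Vsig2 (0.18) and the caveolar gene Cavin2 (0.18). Slc27a1 had Man2a2 (0.15), Ppm1m (0.17) and Tafa5 (0.17). The genes nearest to Angptl4 (Fbxl6, 0.15; St3gal4, 0.16; Pced1a, 0.16) and to Lrp1 (Tchp, Zfp282 and Zscan21, each 0.06) were close mainly because these genes vary little, with RMS deviations from their own means of 0.26 and 0.11.

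**Figure D4:**
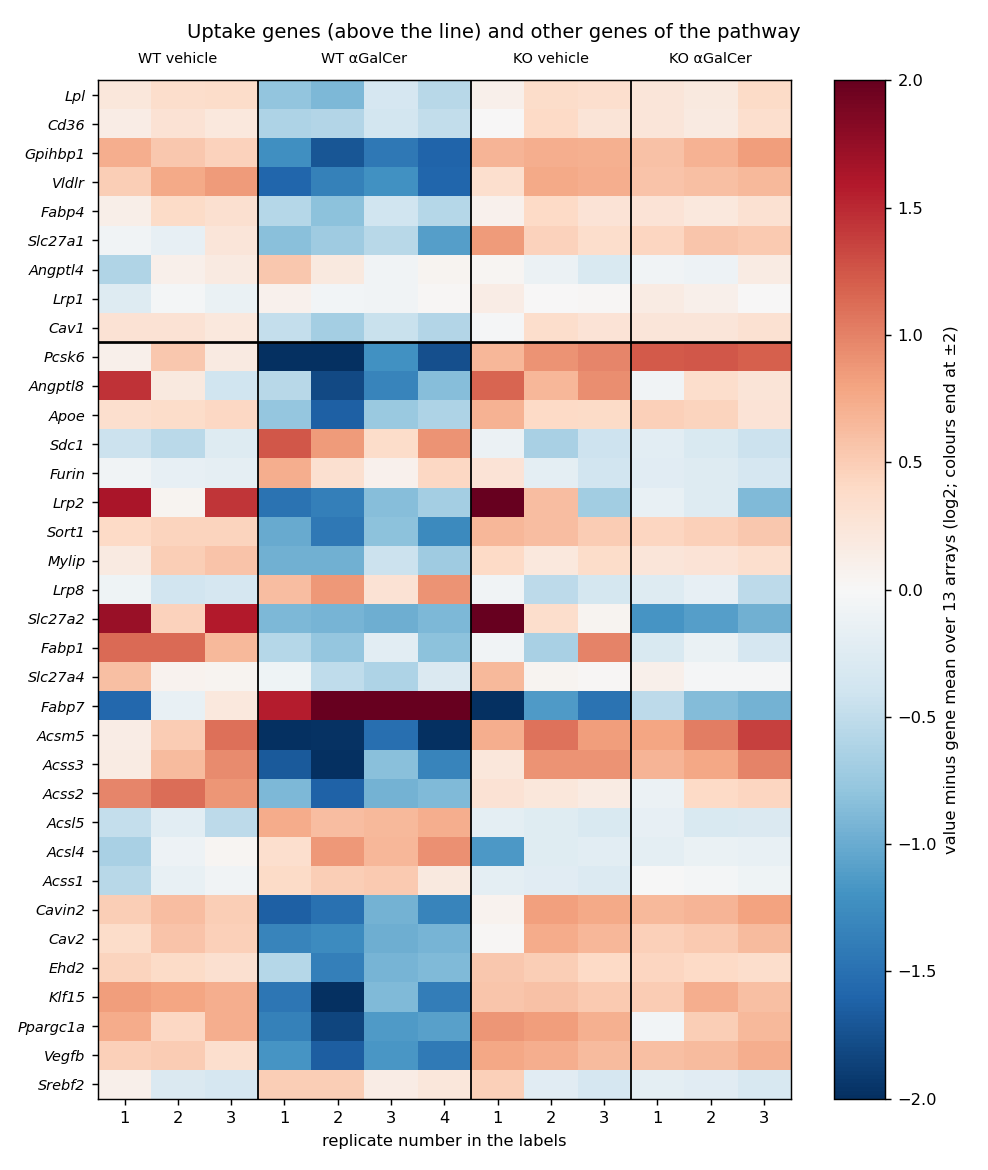
Log2 level of the 9 uptake genes (above the line) and of the named pathway genes (below it) on the 13 arrays, each as its difference from its own mean over all arrays, with arrays in columns by group and colours ending at 2 above and below that mean. The 4 wild type αGalCer columns are low for 7 of the uptake genes, most so for Gpihbp1 and Vldlr, and high for Fabp7, Acsl5, Sdc1 and Lrp8, while Slc27a2 is low after αGalCer in both genotypes.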

How the data were processed

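The authors deposited log2 expression values per probe set for 13 arrays, made with RMA per the submitters' processing notes. Their chip description file and genome build: not given in the sources used here. No depth applies to arrays, whose number limits the precision. Per the labels, 100 ng of RNA with an integrity number above 8.0 was labelled per array.

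Of 35556 probe sets, 21218 had 1 symbol (21185 updated by Entrez identifier and 3 by accession, 30 kept as given), 1881 had several and 12457 none. The 18818 genes were tested with no filter. One limma model (version 3.58.1, R 4.3.3) held a mean per group, with eBayes and an intensity trend, 5 contrasts and Benjamini-Hochberg adjustment over all genes (called under 0.05, two-sided). The model was run on simulated data with independent noise and few changed genes, which is unlike these data. That run therefore does not show how the model performs here. For the relative scales, the per-array mean of the adipocyte or endothelial list was subtracted from every gene first.

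Genes and lists were chosen with earlier results of these data known. All measured uptake genes are named, then up to 3 called rises and 3 called falls per pathway list in wild type fat, and the 3 nearest profiles. Symbols came through the RefSeq table of GRCm38.p6. Equal replicate numbers were not taken as pairs, since only 5 of 18 same-numbered pairs correlated over 0.1, which does not exclude a pairing. Alternatives changed the normalisation, the variance model, array weights, the filter on dim genes, the probe set choice or the arrays used, added a replicate block, or left out each array in turn.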

Additional observations from a re-analysis of the deposited data

Results flagged for a closer look

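For 7 of the uptake genes the test of the difference itself found unlike effects of αGalCer in wild type and knockout fat: Vldlr (-2.13 on the log2 scale, wild type minus knockout), Gpihbp1 (-2.07), Lpl (-0.96), Cav1 (-0.87), Fabp4 (-0.87), Cd36 (-0.76) and Slc27a1 (-0.75).

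The same test was passed by genes of the wider pathway with a more negative effect in wild type fat, namely Acsm5 (-2.66), Pcsk6 (-2.40), Klf15 (-2.30), Acss3 (-2.27), Acss2 (-2.09), Cavin2 (-2.04), Vegfb (-1.74), Cav2 (-1.66), Ppargc1a (-1.53), Sort1 (-1.44), Ehd2 (-1.23), Apoe (-1.22) and Mylip (-1.14). It was passed with a more positive effect by Fabp7 (1.85), Sdc1 (1.18), Acsl5 (1.10), Lrp8 (0.94) and Furin (0.71). Of all genes 14.3% were called lower for this difference, and the share called higher was not counted. The pathway genes were picked by their large called changes on the same wild type arrays. Their differences between genotypes therefore tend to be overstated and are no independent result.

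Wild type αGalCer replicate 2 lay apart from the other 3 arrays of its group for Apoe, which was 11.65, 10.80, 11.69 and 11.81, with the gap taking up 0.841 of the group's range. It also lay apart for Acss2, which was 8.62, 7.90, 8.57 and 8.63, with a gap of 0.918 of the range. These gaps were picked out for their size, and how often chance gives them was not tested. Replicate 2 also held the lowest adipocyte marker mean of its group (9.42).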

How the results depend on the processing

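The counts of called uptake genes in the 5 comparisons (7 in wild type fat, 0 in knockout fat, 7 for the difference, 0 and 7 between genotypes) were the same in every alternative run, 24 for each and 23 for the difference. Some alternatives could hardly move them. Each uptake gene has 1 probe set, so the probe set choice keeps its values, and leaving out an array outside a comparison keeps the change itself. All 45 results of single uptake genes in these comparisons kept their side of the threshold, and 15 uncalled values near 0 changed sign in some alternative. Relative to adipocyte markers 7 to 9 uptake genes were called, and relative to endothelial markers 7 to 9. Of the pathway genes 50 to 59 were called, against 53. With the replicate number as a block the counts were 7, 0, 7, 0 and 7 in the 5 comparisons, 8 and 8 on the relative scales and 55 of the pathway genes. Of 19 array and group pairs 6 correlated best with their own number. Same-numbered arrays correlated at -0.20 to 0.48, which cannot exclude that the numbers pair samples. On the adipocyte scale the calls of Gpihbp1 (adjusted p = 0.0807) and Vldlr (0.0516) were also lost with only the groups of the comparison, and that of Gpihbp1 with the block (0.0549). Of 139 results of single genes, 121 were on the same side of the threshold in all alternatives, 18 were not in at least 1, and 0 reversed. The causes were not tested. With 3 or 4 arrays a group, changes as small as those of Angptl4 and Lrp1 cannot be told from the spread, and dim genes are understated by RMA.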
